A study of Mus musculus with 6 samples.

Results

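The genes of the AMPA and NMDA receptor subunits were followed in the mouse cortex after photothrombosis, a stroke model in which light activates an injected dye and clots the vessels of the illuminated cortex. The 10 genes were chosen by symbol: Gria1, Gria2, Gria3 and Gria4 for the AMPA receptor and Grin1, Grin2a, Grin2b, Grin2c, Grin2d and Grin3a for the NMDA receptor. They are 10 of the 15441 genes with a value in the series. Under their own Ensembl identifiers 9 of them were listed, 8 in all 6 libraries, and Gria3 was listed in none.

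RNA came from the whole ipsilateral cortex of male C57/BL6J mice, 6 to 8 weeks old at the operation. The groups were sham-operated mice (control), which had the same procedure without illumination and were taken at day 7 after it, and mice taken 1, 3, 7, 14 or 28 days after stroke. Each library pooled 3 mice and each group had 1 library, so no difference has a replicate check and no p-value can be given, and all 5 comparisons share the one sham library. The values are FPKM, a fragment level scaled to transcript length and to the size of the library, and were given by the authors for transcript starts, transcript ends and splicing events. The value of a gene is the largest of its summed starts, its summed ends and any single event.

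AMPA and NMDA receptors are the cation channels that carry most fast excitatory transmission in the cortex. An AMPA receptor is assembled from subunits GluA1 to GluA4, encoded by Gria1 to Gria4. Receptors that hold the edited GluA2 subunit pass little calcium, so the share of Gria2 is of interest after ischemia. An NMDA receptor needs GluN1 (Grin1), which binds glycine, together with a GluN2 subunit (Grin2a to Grin2d), which binds glutamate, or GluN3 (Grin3a), which also binds glycine. In each AMPA subunit gene, 1 of a pair of alternative exons, flip or flop, is normally used. The pair encodes a stretch of the ligand-binding domain that helps set how fast the channel desensitizes.

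The pair in Gria2 is shown because its events were listed in all 6 libraries. Both exons are coding, on the minus strand of chromosome 3 (GRCm38): the flop exon at chr3:80691320-80691434 comes first in the transcript and the flip exon at chr3:80690404-80690518 follows. Each holds 115 bases, and they differ at 36 of them (68.7% identity). The sequences, from the GENCODE M21 transcripts, run 5′ to 3′ in the sense of the gene, and capitals mark the bases at which they differ.
Gria2 flop: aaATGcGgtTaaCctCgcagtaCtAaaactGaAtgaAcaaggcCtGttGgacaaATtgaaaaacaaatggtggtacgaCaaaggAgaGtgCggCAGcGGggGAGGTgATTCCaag
Gria2 flip: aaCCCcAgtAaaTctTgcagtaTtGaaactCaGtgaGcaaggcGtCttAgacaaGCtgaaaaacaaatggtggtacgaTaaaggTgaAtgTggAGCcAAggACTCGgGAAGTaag
The other 3 genes carry the same kind of pair, also of 115 bases, and the flip exons of any 2 genes are 87.8% to 92.2% identical.

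In sham, the highest level per length was that of Gria2 at 119 FPKM, followed by Grin1 at 96.2 FPKM and Gria1 at 46.6 FPKM. The locus of Gria3 stood at 26.5 FPKM and Gria4 at 20.9 FPKM. Among the GluN2 genes Grin2b was listed at 13.5 FPKM, Grin2c at 9.29 FPKM, Grin2a at 3.28 FPKM and Grin2d at 2.41 FPKM, and Grin3a at 4.64 FPKM. Without replicates it cannot be said which neighbours in this order differ.

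**Figure D1:**
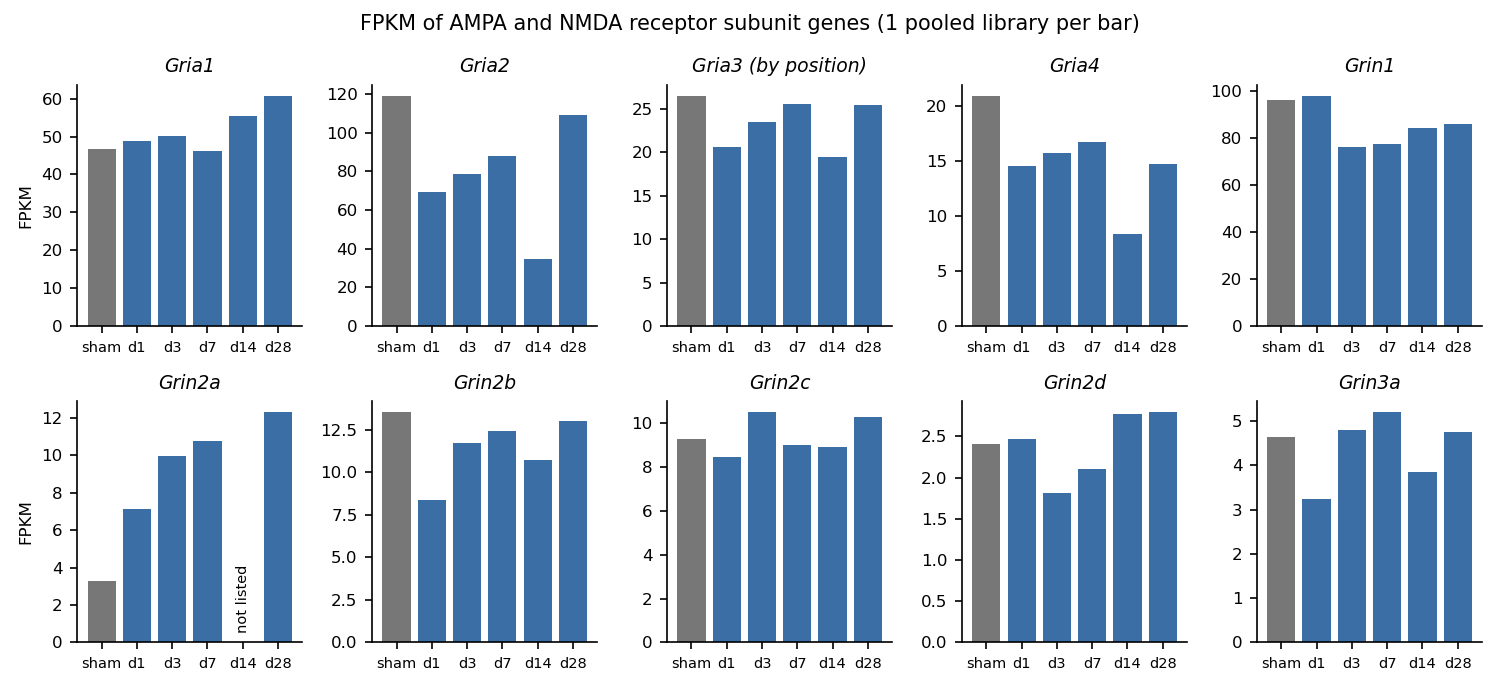
FPKM of the 10 genes in each library (gray bar, sham; blue bars, days 1 to 28 post-stroke; 1 pooled library per bar, so no error bars; the FPKM axis starts at 0 and differs between panels). Gria2 and Gria4 had their lowest bar at day 14, at 34.7 and 8.36 FPKM, Gria1 its highest bar at day 28, at 60.7 FPKM, and Grin2a was not listed at day 14.

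Differences from sham were taken as log2((FPKM + 0.1)/(sham FPKM + 0.1)), which understates the change of low genes, and a gene was counted as higher or lower where this ratio reached 1 in size, a 2-fold change. Genes with at least 1 FPKM in 1 of the 2 libraries were compared. At day 14, 2 genes were lower, Gria2 and Gria4, and none was higher, while 6.92% of all genes compared were lower and 8.97% higher. Grin2a, not listed at day 14, would make 3 lower genes if taken as 0, as the background does. At days 1, 3, 7 and 28 Grin2a alone was higher, against 5.11%, 8.54%, 8.53% and 3.68% of all genes. No subunit gene was lower at those days, against 4.48%, 2.53%, 2.12% and 2.79% of all genes.

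With a lower threshold of 1.5-fold, Gria2 and Grin2b were lower at day 1 (2 genes, 11.2% of all genes), Gria2 at day 3 (1 gene, 6.6%) and Gria2 and Gria4 at day 14 (2 genes, 13.4%). None was lower at days 7 and 28, against 6.05% and 6.92%. At this threshold Grin2a was again the 1 higher gene, at days 1, 3, 7 and 28, against a background of 11.5%, 15.9%, 15.3% and 8.93%, and none was higher at day 14, against 18.5%.

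The log2 ratios of the subunit genes lay on both sides of 0 at every day, which a median over them does not show. The median log2 ratio over those listed was -0.13, -0.20, -0.13, -0.23 and 0.03 at days 1, 3, 7, 14 and 28. The median over all genes compared was 0.01, 0.03, 0.03, 0.10 and 0.03, and the subunit median minus it was lowest at day 14, at -0.33. Relative to markers of neurons in general, whose median ratio was -0.07, -0.40, -0.30, -0.28 and -0.17 at the 5 days, the subunit median turned positive at day 3 (0.19), day 7 (0.17) and day 14 (0.05). In bulk tissue, fewer neurons and less RNA per neuron cannot be told apart. Below sham were 5, 5, 7 and 4 of 9 genes at days 1, 3, 7 and 28, and 6 of 8 genes at day 14. The share of all genes below sham was not computed, so these counts have no background and are not read as a decline.

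**Figure D2:**
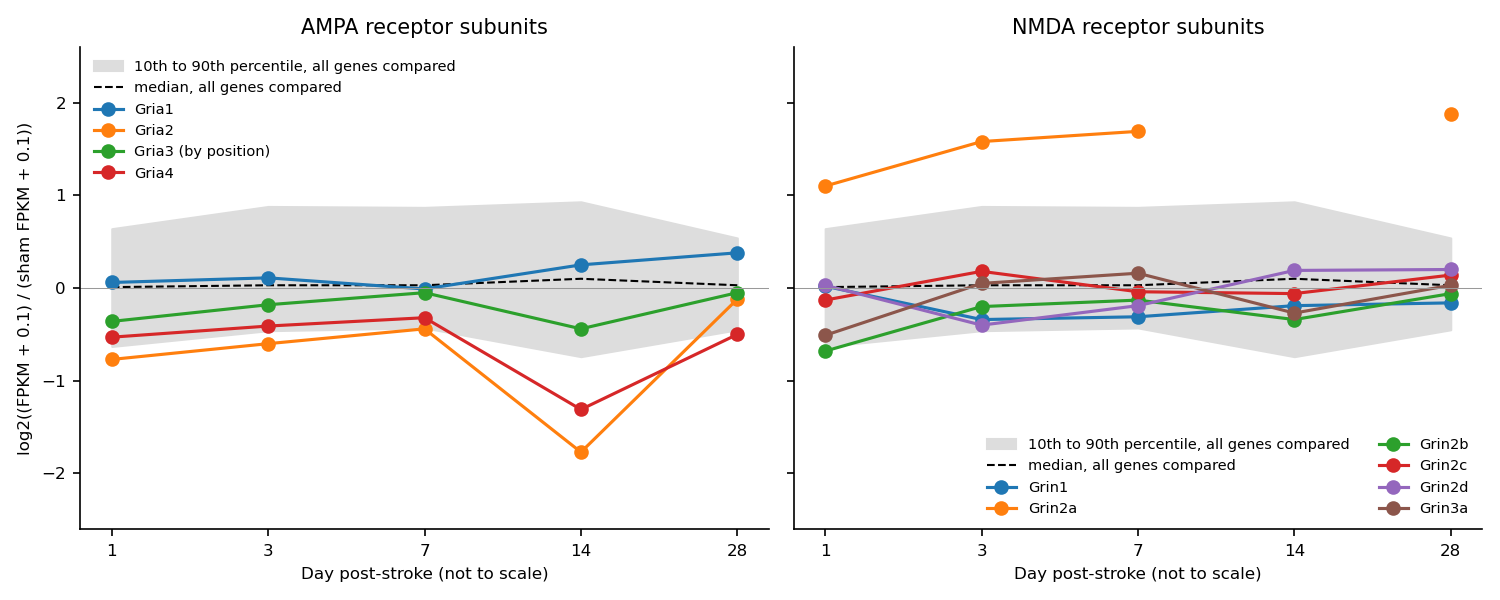
Log2 ratio to sham (y axis, no unit) of each subunit gene at each day post-stroke (x axis, days spaced evenly), with AMPA genes on the left and NMDA genes on the right. The gray band runs from the 10th to the 90th percentile of all genes compared and the dashed line is their median. Gria2 at -1.77 and Gria4 at -1.31 lay under the band at day 14, and Grin2a lay above it at the 4 days at which it was listed. Less far under the band were Gria2 at days 1 (-0.77), 3 (-0.60) and 7 (-0.44), Grin2b at day 1 (-0.68) and Gria4 at day 28 (-0.50).

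Gria2 (ENSMUSG00000033981, chr3:80681450-80802835, minus strand) stood at 119 FPKM in sham and 69.5, 78.5, 87.7, 34.7 and 109 at days 1, 3, 7, 14 and 28. All 5 stroke libraries were below sham, day 14 by most and day 28 by least. As a share of sham the level was 58.6%, 66.2%, 73.8%, 29.2% and 91.8% at those days, and with scaling to general neuron markers the day 28 log2 ratio turned from -0.12 to 0.04. The log2 ratio at day 14 was -1.77, and it ranged from -2.25 to -1.41 over the 12 settings tried. Of the single Gria2 events listed both in sham and at day 14 and compared, all 15 were lower, by log2 ratios of -2.25 to -1.08. These events share transcripts and are not independent. The main end of Gria2, an assembled last exon of 16718 bases that runs past the annotated end of the gene, went from 92.5 FPKM in sham to 24.5 FPKM at day 14, and its main start from 119 to 24.8 FPKM.

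Gria4 (ENSMUSG00000025892, chr9:4417896-4796234, minus strand), a subunit known from fast-spiking interneurons, was listed at 20.9 FPKM in sham and at 14.5, 15.7, 16.7, 8.36 and 14.7 FPKM at days 1, 3, 7, 14 and 28. All 5 stroke libraries were again below sham, with the lowest level at day 14, at 40% of sham (log2 ratio -1.31, range over settings -1.42 to -1.03). The forms of the gene did not move alike at day 14. The main start went from 17.6 to 4.59 FPKM and the end of an annotated short transcript from 9.7 to 4.58 FPKM. An exon near the 3′ end was listed in a form of 135 bases, at 7.32 FPKM in sham and 7.9 FPKM at day 14, and in a form longer by 113 bases, at 5.06 FPKM in sham and not listed at day 14. Summed, these forms went from 12.4 FPKM in sham to 7.9 FPKM at day 14, a log2 ratio of -0.64, short of the threshold. The flip exon of Gria4 was listed as included at day 7 alone, at 0.776 FPKM, while the event that skips it was listed in every library, from 3.78 FPKM at day 14 to 9.16 FPKM in sham.

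Gria1 (ENSMUSG00000020524, chr11:57011387-57330244, plus strand), whose subunit is the one most tied to activity-dependent insertion of AMPA receptors, was listed at 46.6 FPKM in sham and at 48.7, 50.2, 46.1, 55.3 and 60.7 FPKM at days 1, 3, 7, 14 and 28. Its levels in the stroke libraries ran from 99% of sham at day 7 to 130% at day 28, where the log2 ratio was 0.38. At day 14, where Gria2 and Gria4 were at their lowest, Gria1 was at 119% of sham. No alternative exon of Gria1 was listed.

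Gria3 (ENSMUSG00000001986, chrX:41400854-41678601, plus strand) had no event under its identifier. A locus with the same span and strand was listed under ENSMUSG00000093206, a miRNA gene (Gm22413) inside Gria3. This locus was taken by position after its values had been looked at. It stood at 26.5 FPKM in sham and at 20.6, 23.5, 25.6, 19.5 and 25.5 FPKM at days 1, 3, 7, 14 and 28. Its lowest level was at day 14, at 73.4% of sham (log2 ratio -0.44), and its next lowest at day 1, at 77.6%. It passed neither threshold at any day but was below sham at all 5 days. With it, 6, 6, 8 and 5 of 10 genes were below sham at days 1, 3, 7 and 28, and 7 of 9 genes at day 14. These counts too have no share of all genes beside them.

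The make-up of the AMPA genes within a library does not depend on the scaling of that library. It can still change with a trend in transcript length, such as that given below for day 14. The longest annotated transcript of Gria2 holds 10371 bases, and those of Gria1, Gria3 and Gria4 hold 5546, 5206 and 5441. Gria2 made 55.8% of the summed FPKM of the 4 genes in sham and 45.3%, 46.8%, 49.8%, 29.5% and 51.9% at days 1, 3, 7, 14 and 28. The ratio of Gria2 to Gria1 was 2.55 in sham and 1.43, 1.57, 1.9, 0.627 and 1.79 at days 1, 3, 7, 14 and 28. Sham had the highest of the 6 shares and day 14 the lowest, the only library with more Gria1 than Gria2. The summed level of the 4 genes was 213 FPKM in sham and 153, 168, 176, 118 and 210 FPKM at days 1, 3, 7, 14 and 28.

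Grin1 (ENSMUSG00000026959, chr2:25291181-25319187, minus strand), the subunit every NMDA receptor needs, was listed at 96.2 FPKM in sham and at 97.9, 76.2, 77.5, 84.2 and 86.1 FPKM at days 1, 3, 7, 14 and 28. Its levels stayed within 1.28-fold from the lowest library to the highest. The log2 ratio was 0.02 at day 1 and between -0.34 and -0.16 at the later days, and with scaling to general neuron markers it turned to 0.06, 0.09 and 0.01 at days 3, 14 and 28.

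Grin2b (ENSMUSG00000030209, chr6:135713233-136173511, minus strand), the GluN2 gene that prevails early in development, was listed at 13.5 FPKM in sham and at 8.38, 11.7, 12.4, 10.7 and 13 FPKM at days 1, 3, 7, 14 and 28. Day 1 was lowest, at 61.9% of sham (log2 ratio -0.68), and day 28 was at 95.7%. The direction depended on how the gene value was built. With starts alone the log2 ratios were positive at all 5 days, from 0.17 at day 1 to 0.80 at day 28. The single listed end, an assembled last exon of 20731 bases, was lower than sham in each stroke library, at 13.5 FPKM in sham and 7.93, 11.1, 9.59, 7.34 and 10.5 at days 1, 3, 7, 14 and 28.

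Grin2a (ENSMUSG00000059003, chr16:9567898-9995560, minus strand), the GluN2 gene that prevails in the adult cortex, was listed at 3.28 FPKM in sham and 7.15, 9.97, 10.8 and 12.3 at days 1, 3, 7 and 28, and was not listed at day 14. All 4 listed stroke libraries were above sham, by log2 ratios of 1.10, 1.58, 1.69 and 1.88. These ratios rest on which start was listed. The start at chr16:9994823-9994923 stood at 3.28 FPKM in sham and 7.08, 1.97, 4.1 and 3.28 at days 1, 3, 7 and 28. A second start, at chr16:9992120-9992533, was not listed in sham and stood at 0.0694, 7.98, 6.63 and 9 FPKM at days 1, 3, 7 and 28. Over the start listed in sham alone, the ratio to sham (log2) was 1.09, -0.71, 0.32 and 0.00 at those days. No end of Grin2a was listed in any library. A gene missing from a table is not shown to be silent: at day 14, 36 genes were missing there alone although their median elsewhere reached 5 FPKM. Each other library lacked 0 to 3 such genes, and the median longest transcript of the 36 was 6658 bases.

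The ratio of Grin2a to Grin2b, used as a measure of the change from juvenile to adult NMDA receptors, was 0.242 in sham and 0.853, 0.849, 0.871 and 0.95 at days 1, 3, 7 and 28. The later values rest on the start of Grin2a not listed in sham. With Grin2a taken over its start listed in sham alone, the ratio was 0.242 in sham and 0.844, 0.168, 0.332 and 0.253 at days 1, 3, 7 and 28, so that day 3 turned below sham and day 28 lay near it. With starts alone for both genes it was 0.442 in sham. Both alternatives were chosen after the data were seen.

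The remaining NMDA genes stayed within 1.61-fold over the 6 libraries. Grin2c (ENSMUSG00000020734), best known from the cerebellum, ranged from 8.48 FPKM at day 1 to 10.5 FPKM at day 3, with 9.29 FPKM in sham. Grin2d (ENSMUSG00000002771), known from interneurons, ranged from 1.81 FPKM at day 3 to 2.79 FPKM at day 28, with 2.41 FPKM in sham. Grin3a (ENSMUSG00000039579) ranged from 3.23 FPKM at day 1 to 5.19 FPKM at day 7, with 4.64 FPKM in sham, and its lowest log2 ratio was -0.51 at day 1.

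The ratios of all genes ran with transcript length at days 1 and 14, and the subunit genes have long transcripts. The longest annotated transcript of the 10 genes ran from 4276 bases (Grin1) to 24060 bases (Grin2b), and all 10 were longer than the median gene compared, at 3410 bases. Genes are not independent replicates. Over all those compared, Spearman's rho between this length and the log2 ratio was -0.254, 0.00325, -0.0893, -0.413 and -0.036 at days 1, 3, 7, 14 and 28. At day 14 the median ratio went from 0.44 in the shortest of 20 equal-sized length bins to -0.37 in the longest. Each gene was therefore set against the median of its own bin.

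At day 14, the log2 ratio of Gria2 minus the median of its length bin was -1.40 (bin median -0.37, own ratio -1.77), and that of Gria4 was -1.10 (bin median -0.21, own ratio -1.31). Both stayed past the threshold. Gria2 was placed in its bin by its annotated length of 10371 bases, though its assembled last exon alone held 16718 bases. Its difference from genes as long as the assembled form was not tested. For Grin3a, whose start was not listed at day 14, the difference was 0.06 (own ratio -0.27, and the same with ends alone). For Grin2b, the longest of the genes, it was 0.02 (own ratio -0.34), but -0.53 with bins of the median transcript length of a gene, and its own ratio ran from -0.87 with ends alone to 0.52 with starts alone. The bin of Grin2b spans 8406 to 40378 bases with a median of 10049, so it holds mostly shorter genes. The differences of Grin2b from this bin are therefore not levels relative to genes of like length. Gria1 lay above its bin by 0.46, Grin2d by 0.40 and Grin2c by 0.08, and the difference of Grin1 was -0.13. At that day 3 of 8 genes were below their bin and the median difference was 0.04, with Grin2b counted at 0.02. At day 1, where the ratios also ran with length, the difference was -0.47 for Gria2, -0.39 for Gria4 and, with the same limit, -0.38 for Grin2b. Gria2 and Gria4 were below their bin at all 5 days, with differences of -1.40 to -0.08 and of -1.10 to -0.31. The Gria3 locus was also below its bin at all 5 days, with a difference of -0.30 at days 1 and 14.

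**Figure D3:**
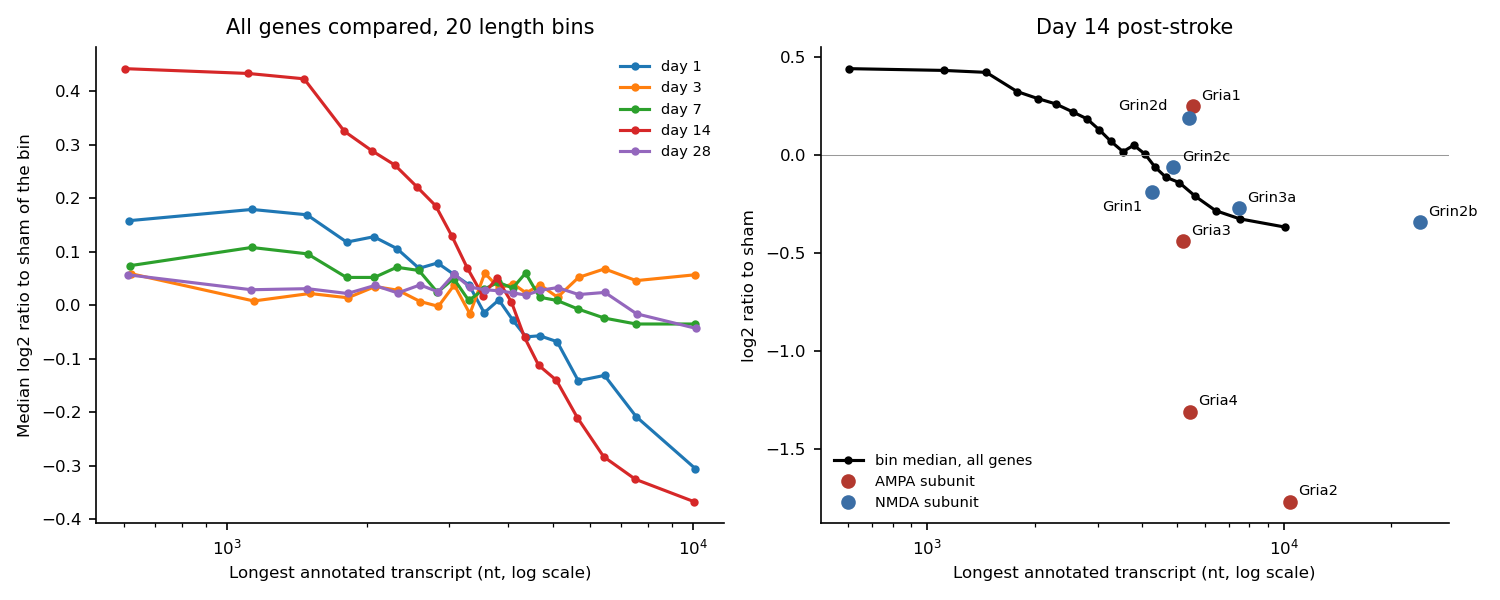
Left, median log2 ratio to sham (y axis) in 20 bins of the longest annotated transcript (x axis, bases, log scale) at each day, over all genes compared. Right, the day 14 bin medians (black) with the AMPA genes (red) and NMDA genes (blue) at their own length. Gria2 and Gria4 sit far below the black line, at differences of -1.40 and -1.10 from their bin medians, and Grin3a and Grin2c within 0.1 of it. Grin2b, at 24060 bases, is far longer than the median gene of the last bin, at 10049 bases.

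The alternative exons were compared by the FPKM of the event with an exon and the event without it. These are sums over estimated transcripts, not counts of reads over junctions. For Gria2, transcripts that joined the flip exon to the exon upstream of the pair stood at 61 FPKM in sham and at 48.2, 32.2, 39, 16.6 and 38.4 FPKM at days 1, 3, 7, 14 and 28. For the flop exon these levels were 40.4, 20.4, 40.4, 41.5, 18 and 40.9 FPKM. The flip share was 60.2% in sham and 70.2%, 44.4%, 48.5%, 48% and 48.4% at days 1, 3, 7, 14 and 28. Flip was the larger part in sham and at day 1, and flop at day 3 (55.6%). At days 7, 14 and 28 the parts were near even, with flop at 51.5%, 52% and 51.6%. With the junction downstream of the pair the flip share was 56% at day 7 and 38.2% at day 28. The side of day 7 and the size of the day 28 difference thus depended on the junction. At day 14 flip and flop were both far below sham, at 16.6 and 18 FPKM.

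In the Gria3 locus most of the level was given to a form that holds both exons in 4 libraries, from 73.2% at day 3 to 78.6% at day 1, a form that was not listed at days 7 and 14. The flip-only form made 19.5% to 23.4% in those 4 libraries, 78.8% at day 7 and 99% at day 14, while the summed level of the locus changed by at most 1.36-fold. A flip and flop share could not be read from this gene.

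Grin1 has 3 alternative parts. The N1 exon, at chr2:25311343-25311405, encodes a loop outside the cell that alters the response to protons, zinc and polyamines. The C1 exon, at chr2:25294438-25294548, encodes part of the tail inside the cell with sites for phosphorylation and retention in the endoplasmic reticulum. The last exon is used with its first 356 bases, giving the C2 tail, or without them, giving C2′. The N1 exon (63 bases) and the C1 exon (111 bases) are shown, in the sense of the gene, since each is a whole exon that is either kept or skipped.
Grin1 N1: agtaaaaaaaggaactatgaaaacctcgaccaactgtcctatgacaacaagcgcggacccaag
Grin1 C1: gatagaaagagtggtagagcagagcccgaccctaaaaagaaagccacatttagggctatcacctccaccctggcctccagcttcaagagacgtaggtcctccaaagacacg
Transcripts with N1 stood at 76.6 FPKM in sham and at 78.9, 30.6, 61.9, 74.4 and 58.9 FPKM at days 1, 3, 7, 14 and 28. This was 79.7% of both forms in sham and 80.9%, 42.7%, 80.3%, 88.9% and 68.5% at days 1, 3, 7, 14 and 28. The form with N1 was the larger in 5 libraries, whereas in the adult forebrain the form without N1 is known as the main one. The C1 exon was included in 32.1% in sham and 33.1%, 28.4%, 34%, 54.8% and 44.1% at days 1, 3, 7, 14 and 28. The C2 tail made 44.7% in sham and 44.3%, 32.2%, 46.2%, 62.6% and 70.7% at days 1, 3, 7, 14 and 28. Sham, day 1 and day 7 lay close together for all 3 parts, with day 3 lowest and days 14 and 28 highest for C1 and the C2 tail, while the Grin1 level itself moved little.

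**Figure D4:**
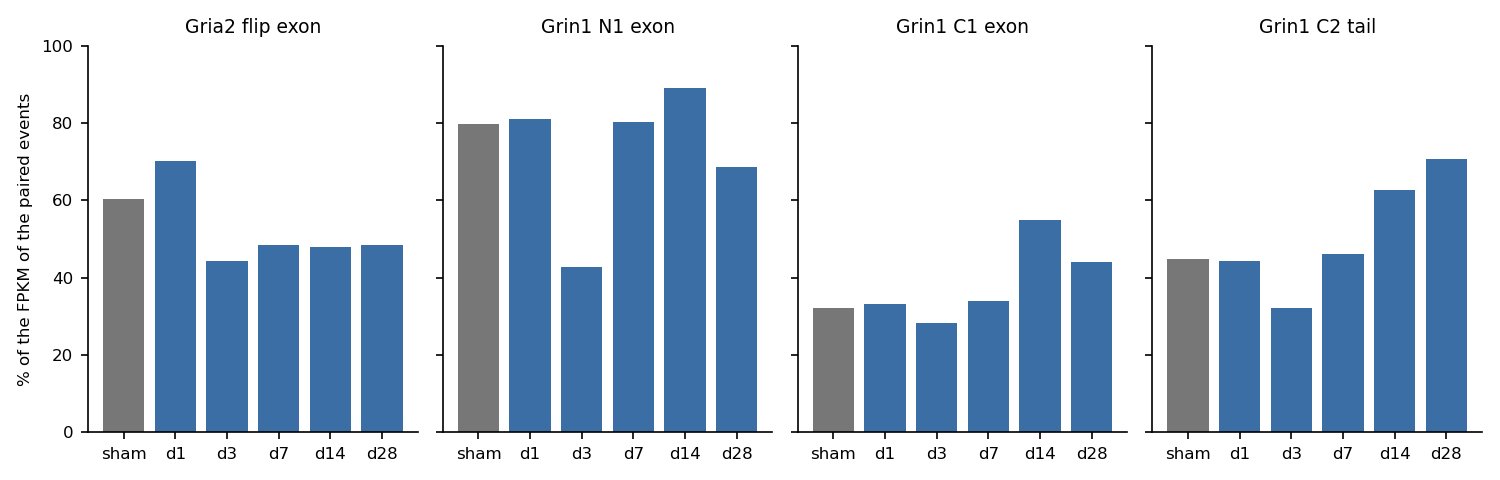
Share (y axis, percent of the summed FPKM of the paired events) of the Gria2 flip exon, the Grin1 N1 exon, the Grin1 C1 exon and the Grin1 C2 tail in each library (gray, sham; blue, days post-stroke; 1 pooled library per bar). The flip share peaked at day 1 (70.2%), the N1 share was lowest at day 3 (42.7%), and the C2 share ran from 32.2% at day 3 to 70.7% at day 28.

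Of 47 other genes of glutamate signalling, 41 were listed, and few passed the threshold, for which the shares of all genes are given above. At day 1, 1 of 41 was higher, Cacng5, an auxiliary subunit of AMPA receptors (log2 ratio 1.01). Its level was low, at 1.57 FPKM in sham and 3.26 FPKM at day 1. With ratios of 0.98 at days 3 and 14 it fell just short there, so day 1 does not stand apart. At day 14, 2 of 41 were lower, the metabotropic receptor gene Grm5 (-1.24) and the scaffold gene Homer1 (-1.01), which links group I metabotropic receptors to the postsynaptic density. The day 14 medians of their length bins were -0.325 and -0.210. Relative to these medians neither gene would pass the threshold. At day 28, 1 of 41 was lower, Cnih3, another AMPA auxiliary subunit (-1.09). None passed at days 3 and 7. The median ratio of the 41 genes was -0.19, -0.22, -0.19, -0.17 and -0.03 at days 1, 3, 7, 14 and 28. The 4 kainate receptor genes listed ran from -0.50 to 0.17 over all days, and Dlg4, the gene of the main postsynaptic scaffold PSD-95, stood at 159 FPKM in sham and 147 FPKM at day 14. Grin3b, Grik4, Cacng8, Shisa7, Dlg2 and Pick1 were not listed in any library.

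Ranked by likeness to the mean profile of the 8 subunit genes listed everywhere, on log2(FPKM + 0.1) over 6 libraries, the 5 nearest of 11557 genes were Chsy3 (Pearson r 0.993), Negr1 (0.991), Arfgef1 (0.990), Socs5 (0.988) and Gba2 (0.987). All 5 were lowest at day 14, Chsy3 at 1.63 FPKM against 3.17 in sham and Negr1 at 29.2 against 44.4. The mean profile itself went from 4.25 in sham to 3.81 at day 14. Most of that drop came from Gria2 (log2 ratio -1.77) and Gria4 (-1.31). The others lay between -0.34 (Grin2b) and 0.25 (Gria1), so the low point is not one that the subunit genes share. These r values are descriptions over 6 libraries, and the scaling and the length trend of each library are shared by all genes.

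Other cell types moved with the days, and their part in these values was not tested. Of 10 general neuron markers 9 were listed, with a summed level of 2201 FPKM in sham and 1690 to 2049 FPKM after stroke. Map2 alone passed the threshold among them, lower at day 14 (113 to 23.7 FPKM, log2 ratio -2.25). Of 6 excitatory neuron markers 5 were listed (984 to 1371 FPKM in sum over the 6 libraries), with Neurod6 in no library, and of 6 inhibitory neuron markers 5 (167 to 210 FPKM), with Sst in none. Of 6 astrocyte markers Gfap, which rises in reactive astrocytes, went from 85.8 FPKM in sham to 330, 698, 422, 380 and 150 FPKM at days 1, 3, 7, 14 and 28. The other 5 astrocyte markers summed to 454 FPKM in sham and 377, 562, 494, 356 and 415 FPKM at those days, and 4 of the 6 were below sham at days 1, 14 and 28. The summed level of 6 microglia and macrophage markers was 88.9 FPKM in sham and 95.1 to 338 FPKM after stroke, with Cx3cr1 and Tmem119 not listed in sham. Within this sum C1qa went from 42.5 FPKM in sham to 259 FPKM at day 7. P2ry12 stood at 18 FPKM in sham and 7.01, 21.7, 17.7, 13.3 and 15.6 FPKM at days 1, 3, 7, 14 and 28. At day 1 P2ry12 was lower past the threshold (log2 ratio -1.35). Of 6 hypothalamic markers, which cortex should lack, none was listed in sham and 4 were listed in 1 or more stroke libraries. Their summed level was 55.9, 10, 34.5, 23.1 and 4.49 FPKM at days 1, 3, 7, 14 and 28. Of 6 striatal projection neuron markers 4 were listed in every library. They summed to 256 FPKM in sham and 281, 186, 175, 295 and 337 FPKM at those days. The 3 thalamic markers summed to 16.5 FPKM in sham and 12.4 to 22.6 FPKM after stroke. Of 4 cerebellar markers 1 was listed, at 3.24 FPKM in sham and 2.04 to 5.05 FPKM after stroke.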

How the data were processed

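The authors deposited, per library, a table of FPKM for transcript starts, transcript ends and splicing events, with events at 0 left out. The labels describe strand-specific poly(A) libraries and an average of 33.6 M reads per sample, and the submitters' processing notes name Trimmomatic 0.30, HISAT2 2.0.1, HTSeq 0.6.1 and mm10 without their roles. Since the depth behind each value is unknown, intervals were not computed. Repeated events were dropped, and genes were taken by Ensembl identifier (15411 of 15441 matched GENCODE M21). The gene value is the largest of summed starts, summed ends and any single event. This construction was chosen earlier with the study's own ratios in view, and the genes, lists and settings were chosen with earlier results of these data known. A pseudocount of 0.1 FPKM, a minimum of 1 FPKM and a log2 threshold of 1 were used, with no test. All 10 subunit genes are named, and pathway genes where they pass the threshold or lie at an extreme; Dlg4 was named after its values were seen. The steps were tested on simulated data. There every transcript had a listed start and end, so the effect of starts or ends missing from a library, as for Grin2a, was not tested. Python 3.11.15, numpy 2.4.6, pandas 2.3.3, Biopython 1.88 and matplotlib 3.10.9 were used. The exons were named flip or flop from their translation in frame.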

Additional observations from a re-analysis of the deposited data

Results flagged for a closer look

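Grin2a was above the threshold at day 1 (log2 ratio 1.10), day 3 (1.58), day 7 (1.69) and day 28 (1.88), and was not listed at day 14, where a value of 0 would put it on the other side of sham. It was marked because the days differ in direction if the missing value is read as 0. The difference between days was not tested, since each day has 1 library.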

How the results depend on the processing

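With 1 library per group, values were called moved past a 1.5-fold change and counts past 1.5 times. The count of higher genes went from 1 to 0 at days 1, 3, 7 and 28 with a threshold of 2 on the log2 ratio and with ends alone, for which Grin2a has no value, and at day 1 with a pseudocount of 1 FPKM. With only events listed in every library that lists the gene, chosen after the data were seen, it went to 0 at days 3, 7 and 28, the ratio of Grin2a was -0.71 at day 3, and 1 gene, Grin3a, was lower at day 1. The count of lower genes at day 14 was 0 with a threshold of 2. With a 1.5-fold threshold 2 genes were lower at day 1 (11.2% of all genes) and 1 at day 3 (6.6%). Medians over the genes moved by less than 1.5-fold in all 55 repeats. Their sign turned at days 3, 7 and 14 with scaling to general neuron markers (0.19, 0.17 and 0.05), at day 14 with scaling in length bins (0.04), at day 3 with starts alone (0.05), and at day 28 with ends alone (-0.07) and with Gria3 by position (-0.01). Library scaling shifted day 14 by 0.10 on the log2 scale. Gria2 and Gria4 were lower than the threshold at day 14 under all 12 settings. For Gria4 the setting with ends alone rests on the end of the short transcript. The summed forms of its exon near the 3′ end, not among the settings, did not pass at day 14 (log2 ratio -0.64). Dropping a replicate was not possible with 1 library per group. No paired analysis was possible because each group has 1 library.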
